A study of Drosophila melanogaster with 36 samples.

Results

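The 3LHet scaffold holds heterochromatic sequence of the left arm of chromosome 3 that the dm3 assembly of the Drosophila melanogaster genome keeps apart from the arm itself. It was cut into 2555 bins of 1 kb, and those described here are the 2049 that overlap no annotated exon and have a mappability index above 0, of 139714 bins in the whole table. Another 100 bins of the scaffold overlap an exon, and 406 bins without an exon have an index of 0 and were not analysed here. Of the 2049 bins, 368 had an input signal under 25% of the median of all bins (8.71) and were set aside, which left 1681.

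Rhino is a germline chromodomain protein of the HP1 family that binds chromatin carrying trimethylated lysine 9 of histone H3 (H3K9me3). With its partners Deadlock, which links the complex together, and Cutoff, a protein related to the decapping exonuclease Rai1, it marks dual-strand piRNA clusters. These are stretches of heterochromatin rich in transposon remnants that are transcribed from both strands and processed into piRNAs, the small RNAs that guide Piwi-family proteins to transposons.

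Females 4 to 6 days old, kept at 25 °C, gave ovaries in which RNA interference in the germline was aimed at piwi, cutoff, deadlock or rhino. The control was a germline knockdown too, of a target that the labels do not name. Whole ovaries were used, so RNA and chromatin of the somatic follicle cells, where the germline knockdown is not active, are in every library. Chromatin immunoprecipitation (ChIP) was done for Rhino in all 4 knockdowns and the control, for Deadlock and Cutoff in their own knockdown and the control, for H3K9me3 in rhino knockdown, piwi knockdown and the control, and for RNA polymerase II (Pol II) in rhino knockdown and the control. Small RNA of 18 to 29 nt and RNA-seq after removal of ribosomal RNA covered the rhino, deadlock and cutoff knockdowns and the control, and GRO-seq, which captures nascent RNA by nuclear run-on, covered rhino knockdown and the control.

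Values are a signal per bin, namely reads scaled to the library total and divided by the bin's mappability index, with a small offset of 0.1 (0.01 for RNA-seq) that a bin without reads shows. Rhino ChIP in the control and in piwi knockdown, all H3K9me3 groups and the input were averages of 2 libraries made by the authors, while RNA-seq offered 2 control libraries as columns of their own. All remaining groups rested on 1 library each. Between-replicate error was therefore available for the RNA-seq control only. Other intervals below are 95% intervals over bins or over reads, they cover counting error and not the spread between ovaries, and reads amplified by PCR are not independent molecules. Neighbouring bins share domains and repeats and are not replicates. The library totals ran from 3872000 reads for Rhino ChIP in deadlock knockdown to 169660000 for RNA-seq in cutoff knockdown.

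Rhino was bound more often on the scaffold than over all bins in the control, and the extent depended on the threshold. A bin was called bound where Rhino ChIP was at least 4-fold over input, as a difference of log2(signal + 1), and 741 of 1681 bins (44.1%) met this, beside 3.35% of all 123742 bins of the table that passed the input filter. The count was 1331 at 2-fold, 280 at 8-fold and 406 with a pseudocount of 5. The bins just inside and just outside the threshold had log2 values of 2.00093 and 1.99904, and 69 bins lay within 0.1 above it and 56 within 0.1 below it. The median Rhino signal was 39.2 in bound bins against an input of 4.13, and 15.0 in the 940 unbound bins against an input of 6.42. The bin with the highest ratio (3LHet 2050001 to 2051000) reached a log2 Rhino over input of 6.00. These values chose the bound bins and are a description. The bound bins were also the less mappable ones, with a median index of 0.224 in bound bins and 0.541 in unbound bins.

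Joining bound bins across gaps of up to 3 kb and asking for at least 5 of them gave 37 domains. They spanned 821 kb and held 606 of the bound bins and 76.4% of the scaffold's Rhino signal above input, and the other 135 bound bins were scattered. A domain was 5 to 52 kb long, with a median of 18 kb. The coverage was uneven along the scaffold. In consecutive windows of 250 kb, the share of bound bins was 65.6%, 57.5%, 44.4% and 71.3% from the start, 30.8%, 37.4% and 15.8% over the next 3 windows, and 67.2% and 68.0% between 1750001 and 2250000. In the window from 2250001 to 2500000 only 6 of 152 bins (3.95%) were bound, and the last 55 kb had 14.3%. The window with 3.95% bound had the highest mean GRO-seq signal of all windows in the control, 12.3, where the others had 0.436 to 9.48. Its median Rhino signal was 14.9 against an input of 9.35, and its median mappability index, 0.635, was the highest of all windows.

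**Figure D1:**
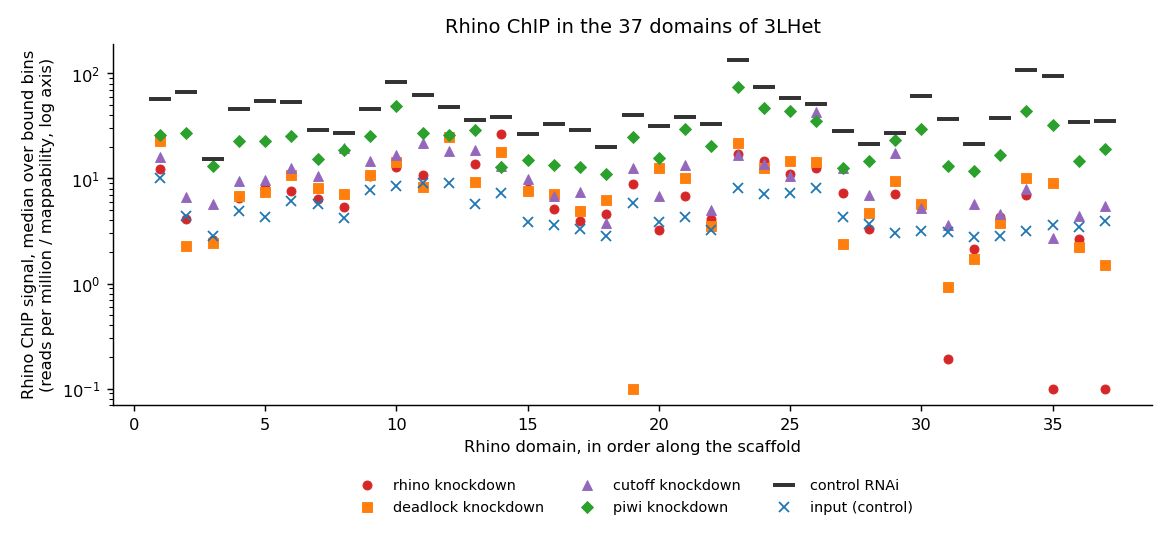
Median Rhino ChIP signal over the bound bins of each of the 37 domains, in order along the scaffold, on a log axis. Coloured points are the rhino, deadlock, cutoff and piwi knockdowns, black bars the control and crosses the input. The control lies highest in all 37 domains, and the piwi knockdown is the highest of the knockdowns in 33.

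The 8 domains with the largest summed Rhino signal above input held 58.3% of the signal of all domains. In order of that sum they lay at 1481001 to 1507000, 532001 to 556000, 1399001 to 1431000, 1438001 to 1455000, 280001 to 330000, 165001 to 209000, 1873001 to 1906000 and 243001 to 275000. The order leans on bins of very low mappability, in which few reads give a large signal. In the first domain a single bin (1484001 to 1485000, index 0.001) carried 71.7% of the sum, and without that bin the domain would rank 7th. With bins of an index under 0.05 left out, 6 of the 8 domains stayed among the first 8 and the domain at 532001 to 556000 led. Nearly all bound bins of the 8 domains, 197 of 202, lie in clusters that the authors' table flags as published.

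Rhino ChIP signal at the bound bins was far below the control when any member of the Rhino, Deadlock and Cutoff complex was knocked down, and was in between in piwi knockdown. The median log2 change was -2.58 (interval -2.68 to -2.46) in rhino knockdown, -2.45 (-2.55 to -2.34) in deadlock knockdown, -2.03 (-2.12 to -1.88) in cutoff knockdown and -0.85 (-0.90 to -0.80) in piwi knockdown. At least 2-fold lower were 678 of 741 bound bins in rhino knockdown (15.9% of all bins of the table), 672 in deadlock knockdown (18.5%), 583 in cutoff knockdown (4.41%) and 285 in piwi knockdown (1.85%). Since the control Rhino signal chose the bound bins, part of any such loss comes with the choice, and the levels in each knockdown are given beside it. The median signal in bound bins was 5.54 in rhino knockdown, 6.48 in deadlock knockdown, 9.62 in cutoff knockdown and 21.2 in piwi knockdown, against 39.2 in the control and an input of 4.13.

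Judged by the same 4-fold rule, 55 of the 741 bound bins (7.42%) were still bound in rhino knockdown, 87 (11.7%) in deadlock knockdown, 81 (10.9%) in cutoff knockdown and 378 (51.0%) in piwi knockdown. Of the 940 bins unbound in the control, 21, 9, 35 and 31 met the rule in rhino, deadlock, cutoff and piwi knockdown. All 37 domains had a lower median than the control in each of the 4 knockdowns. The decline was at least 2-fold in 36 domains in rhino knockdown, 36 in deadlock knockdown, 33 in cutoff knockdown and 13 in piwi knockdown. The domain that moved least in rhino knockdown (731001 to 738000, 5 bound bins) had a median log2 change of -0.11 there. Scattered bound bins and domain bins had median log2 changes of -0.82 and -2.16 in cutoff knockdown, and of -2.33 and -2.61 in rhino knockdown. Unbound bins, where the control signal was nearer to input, had median log2 changes of -1.09 in rhino knockdown, -1.21 in deadlock knockdown, -0.37 in cutoff knockdown and -0.27 in piwi knockdown.

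At the bin with the most Rhino in the domain at 532001 to 556000 (537001 to 538000, index 0.026), the Rhino signal was 105 in rhino knockdown, 209 in deadlock knockdown, 41.9 in cutoff knockdown and 744 in piwi knockdown, against 572 in the control. It was the only one of the 8 domains' highest bins in which the piwi knockdown exceeded the control. At the corresponding bin of the domain at 165001 to 209000 (178001 to 179000, index 0.036), the signal was 19.1 in rhino knockdown, 0.1 in deadlock knockdown, 0.1 in cutoff knockdown and 52.4 in piwi knockdown, against 248 in the control, so no read was left in 2 of the libraries. At the highest bin of the domain at 243001 to 275000 (261001 to 262000, index 0.128), it was 31.2 in rhino knockdown, 32.4 in deadlock knockdown, 27.5 in cutoff knockdown and 115 in piwi knockdown, against 195 in the control.

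Deadlock and Cutoff ChIP separated less from their own knockdowns than Rhino ChIP did. Deadlock signal in bound bins had a median of 6.63 in deadlock knockdown and 9.33 in the control, with a median log2 change of -0.45 (-0.53 to -0.37) and 209 of 741 bins at least 2-fold lower (1.27% of all bins). Summed reads were 1.72-fold lower in deadlock knockdown (1.68 to 1.76) over bound bins, while the median log2 change in unbound bins was 0.02 (-0.01 to 0.06). Cutoff signal in bound bins had a median of 9.05 in cutoff knockdown and 9.12 in the control, and the median log2 change was 0.00 (-0.11 to 0.05). Of the bound bins, 140 were at least 2-fold lower in Cutoff ChIP (3.14% of all bins) and 149 at least 2-fold higher (6.12% of all bins). Over domain bins alone, the median log2 change was -0.11 for Cutoff (-0.18 to 0.00) and -0.55 for Deadlock (-0.62 to -0.49).

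The 8 leading domains differed among themselves in both. At 1399001 to 1431000 the mean Deadlock signal was 13.5 in deadlock knockdown and 48.1 in the control, with reads 3.05-fold lower (2.83 to 3.30), and the mean Cutoff signal was 16.5 in cutoff knockdown and 37.4 in the control, with reads 1.99-fold lower. At 1481001 to 1507000, the first by Rhino, Deadlock reads were 1.62-fold lower in deadlock knockdown. The mean Cutoff signal was higher there, 108 in cutoff knockdown and 51.3 in the control, although Cutoff reads were 1.35-fold lower. That mean rests largely on the bin at 1484001 (index 0.001). Its Cutoff signal was 1786 in cutoff knockdown, from 34 reads, and 450 in the control, from 6 reads. At 280001 to 330000 the median log2 change of Cutoff was 0.01. At 1873001 to 1906000 the mean Deadlock signal was 5.36 in deadlock knockdown and 22.9 in the control, with reads 3.20-fold lower (2.81 to 3.65). Across the 8 domains, reads were 1.62-fold to 3.20-fold lower for Deadlock and 1.21-fold to 1.99-fold lower for Cutoff.

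H3K9me3, the mark that Rhino binds, was high across the scaffold whether or not Rhino was bound. The median log2 of H3K9me3 over input in the control was 2.80 (2.75 to 2.84) in bound bins and 2.55 (2.52 to 2.59) in unbound bins. All 741 bound bins and 934 of 940 unbound bins were at least 2-fold over input, beside 14.4% of all bins. The ratio shares its input with the choice of bound bins and depends on the scaling: the median of all bins was -0.70 as deposited and 0.12 with equal medians over the euchromatic arms, and that of bound bins was then 3.60. By the signal itself the unbound bins were the higher, with a control median of 36.8 in bound bins and 44.3 in unbound bins, and the authors' H3K9me3 peaks covered 195 bound bins (26.3%) and 567 unbound bins (60.3%). Across the 1681 bins, Rhino over input and H3K9me3 over input had a Spearman rho of 0.30, with a shared input.

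H3K9me3 moved little in the knockdowns. In bound bins the median signal was 30.0 in rhino knockdown and 48.1 in piwi knockdown, against 36.8 in the control. The median log2 change in rhino knockdown was -0.28 (-0.36 to -0.23) in bound bins and -0.37 (-0.40 to -0.34) in unbound bins, and 79 of the 741 bound bins were at least 2-fold lower (1.51% of all bins). In piwi knockdown it was 0.37 (0.35 to 0.39) in bound bins and 0.19 (0.17 to 0.22) in unbound bins, with 30 bound bins at least 2-fold higher (1% of all bins) and 3 at least 2-fold lower (1.05% of all bins). With equal medians over the arms, the change in bound bins in rhino knockdown was -0.47. The lowest domain medians in rhino knockdown were those of the last 2 domains along the scaffold, -0.92 at 2086001 to 2138000 and -1.501 at 2142001 to 2188000. Among the 8 leading domains it lay between -0.69 at 165001 to 209000 and 0.09 at 1481001 to 1507000.

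**Figure D2:**
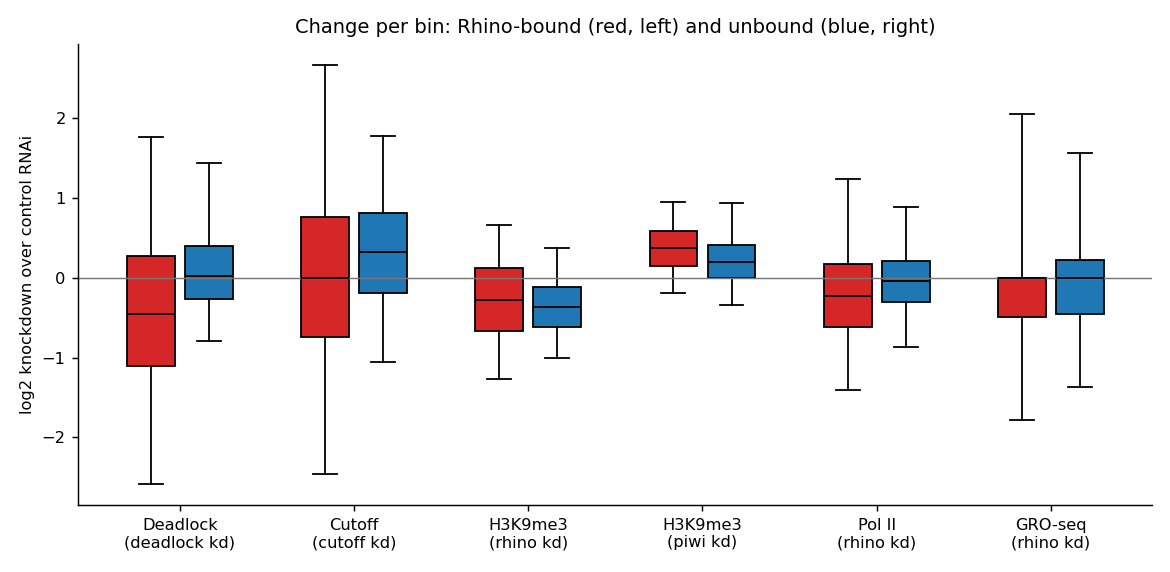
Log2 change of knockdown over control per bin, for Deadlock, Cutoff, H3K9me3, Pol II and GRO-seq, in Rhino-bound bins (red, left) and unbound bins (blue, right). Boxes give the quartiles and the median, whiskers the 5th to 95th percentile. Most boxes straddle 0, with medians of -0.45 for Deadlock and -0.28 for H3K9me3 in rhino knockdown in bound bins.

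Small RNA from bound bins was almost absent in rhino, deadlock and cutoff knockdown. The mean signal per bound bin was 6.02 in rhino knockdown, 5.34 in deadlock knockdown and 4.92 in cutoff knockdown, against 199 in the control, and the medians were 0.886, 0.470 and 0.563 in those knockdowns against 116 in the control. Median log2 changes were -5.46 (-5.68 to -5.34) in rhino knockdown, -5.63 (-5.84 to -5.46) in deadlock knockdown and -5.62 (-5.76 to -5.42) in cutoff knockdown. At least 2-fold lower were 702 of 741 bound bins in rhino knockdown (11.6% of all bins), 703 in deadlock knockdown (12% of all bins) and 707 in cutoff knockdown (11.7% of all bins). Summed reads were 47.8-fold lower in rhino knockdown (46.3 to 49.4), 54.9-fold lower in deadlock knockdown (52.9 to 56.9) and 55.2-fold lower in cutoff knockdown (53.5 to 56.9). Of the library total used for scaling, 41.3% in rhino knockdown, 44.4% in deadlock knockdown and 45.2% in cutoff knockdown fell into the bins of the table, against 89.7% in the control, and what that total counts is not given in the sources used here. With libraries set instead to equal medians over the euchromatic arms, the medians in bound bins were -5.81, -5.94 and -5.88 in those knockdowns. In whole ovaries, fewer cells of a type and less RNA per cell cannot be told apart.

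Unbound bins also gave less small RNA, by a smaller factor. Their median log2 changes were -2.79 in rhino knockdown, -2.75 in deadlock knockdown and -2.80 in cutoff knockdown, and scaled reads were 5.15-fold lower (5.05 to 5.24) in rhino knockdown. Across the 1681 bins, control small RNA and Rhino over input had a Spearman rho of 0.67, while control small RNA and H3K9me3 over input had 0.14. The small RNA bound to Piwi in ovaries whose germline lacked piwi, which the labels equate with somatic piRNAs, had a mean signal of 1.49 in bound bins, against 199 in whole-ovary small RNA of the control. That library is an immunoprecipitate, so only its pattern can be set beside the others.

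**Figure D3:**
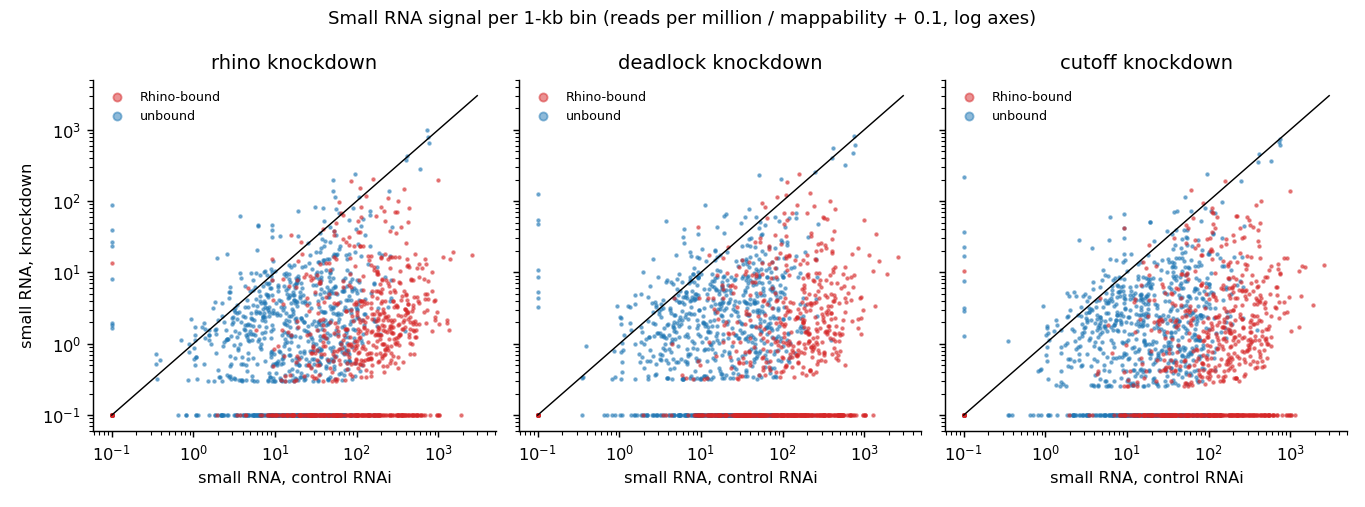
Small RNA signal of each of the 1681 bins in rhino, deadlock and cutoff knockdown (vertical) against the control (horizontal), on log axes, with Rhino-bound bins in red and unbound bins in blue. The line marks equal signal, and points along the lower edge are bins without reads in the knockdown (258 bound bins in rhino knockdown). A few unbound bins at the upper right stay on the line.

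Small RNA of the 8 leading domains was at least 47.5-fold lower in rhino knockdown. At 1438001 to 1455000 the mean signal was 0.830 in rhino knockdown, 1.38 in deadlock knockdown and 0.845 in cutoff knockdown, against 558 in the control. The reads there were 21 in rhino knockdown and 9539 in the control, 536-fold lower after scaling (350 to 866). At 1481001 to 1507000 the mean was 1.17 in rhino knockdown, 1.36 in deadlock knockdown and 1.10 in cutoff knockdown, against 393 in the control. The domain at 532001 to 556000 was the richest in small RNA and kept the most of the 8 in rhino knockdown, with a mean of 11.8 in rhino knockdown, 10.02 in deadlock knockdown and 10.7 in cutoff knockdown, against 626 in the control, 47.5-fold lower in rhino knockdown (42.2 to 53.5). The other 5 were 59.5-fold to 434-fold lower in rhino knockdown.

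The 5 unbound bins with the most small RNA in the control kept much of it in the knockdowns. One of them, 995001 to 996000, lies inside the span of the domain at 994001 to 1002000, and the other 4 lie outside all domains. At 1520001 to 1521000 the signal was 783 in rhino knockdown, 810 in deadlock knockdown and 731 in cutoff knockdown, against 758 in the control, and at 1521001 to 1522000 it was 427, 547 and 454 in those knockdowns, against 410 in the control. At 995001 to 996000 it was 644 in rhino knockdown, 606 in deadlock knockdown and 611 in cutoff knockdown, against 760 in the control. At 1240001 to 1241000 it was 983, 476 and 667 in those knockdowns, against 727 in the control, and at 1589001 to 1590000 it was 283, 316 and 365, against 589 in the control. The knockdown values thus lay between 1.35-fold higher and 2.08-fold lower than the control. The 2 adjoining bins from 1520001 also had high signal in the Piwi immunoprecipitate, 422 and 350, that at 1240001 had 184, and those at 995001 and 1589001 had 7.92 and 8.38. Their log2 Rhino over input was 0.95 to 1.79, below the binding threshold.

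Pol II signal in bound bins was low in the control and slightly lower in rhino knockdown. The control median was under the input median of 4.13 in these bins, and under the 1.83 of unbound bins. The median signal was 1.03 in rhino knockdown and 1.57 in the control, the median log2 change was -0.23 (-0.28 to -0.18), and reads were 1.22-fold lower (1.18 to 1.26). In unbound bins the median log2 change was -0.04 (-0.07 to -0.01) and reads were 1.03-fold lower. At least 2-fold lower were 81 of 741 bound bins (0.905% of all bins), a count that rests on weakly mappable bins: of the 200 bound bins with an index of at least 0.5, it held for 2. With a pseudocount of 0.1 it was 194 of 741 and with one of 5 it was 11, and shares of all bins were not computed there.

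Nascent RNA was sparse at the bound bins. GRO-seq had no read in 564 of 741 bound bins in rhino knockdown and in 475 in the control, so the median log2 change was 0. Of the 940 unbound bins, 413 had no read in rhino knockdown and 435 in the control. Bound bins were the less mappable, with a median index of 0.224 against 0.541, and the part of mappability in these counts was not tested. Of the bound bins, 95 were at least 2-fold lower in rhino knockdown (3.88% of all bins) and 75 at least 2-fold higher (4.37% of all bins). Reads summed over bound bins were 1208 in rhino knockdown and 1440 in the control, 1.12-fold lower (1.04 to 1.21). With a pseudocount of 0.1 the count of bins at least 2-fold lower was 196, and with one of 5 it was 13, without shares of all bins.

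RNA-seq lay below both control libraries in many bound bins. The median signal in bound bins was 0.023 in rhino knockdown, 0.010 in deadlock knockdown and 0.016 in cutoff knockdown, against 0.236 and 0.201 in the 2 control libraries. The mean per bound bin was not lower, which rests on single very high bins. It was 0.659, 0.480 and 0.461 in those knockdowns, against 0.450 and 0.460 in the control libraries. The highest bound bin reached 191, 46.7 and 145 in those knockdowns, against 7.53 and 9.85 in the control libraries. Upper quartiles of the bound bins were 0.111, 0.143 and 0.0774 in those knockdowns, against 0.510 and 0.530 in the control libraries. The median log2 change, with 0.1 added to the signal, was -0.98 (-1.09 to -0.87) in rhino knockdown, -0.95 (-1.08 to -0.84) in deadlock knockdown and -1.06 (-1.20 to -0.95) in cutoff knockdown. The first control library against the second had 0.00, but by domain that median ran from -0.79 to 2.05. Bound bins without a read numbered 155 in the first control library and 254 in the second. At least 2-fold lower were 368 of 741 bound bins in rhino knockdown (6.5% of all bins), 359 in deadlock knockdown (10.2% of all bins) and 383 in cutoff knockdown (9.16% of all bins). These counts depend on the pseudocount: with 1 added they were 27, 34 and 26 in those knockdowns. The share of all bins with 1 added was not computed. All 3 knockdown libraries lay below both controls in 336 of 741 bound bins (45.3%) and in 310 of 606 domain bins (51.2%), beside 20.1% of all bins, and in 353 of 940 unbound bins (37.6%). They lay above both controls in 29 bound bins (3.91%), beside 7.96% of all bins.

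In its planned setting, the test of single RNA-seq bins could not separate changed from unchanged bins. On simulated data with known changes it made no call at any size tried, so a count of 0 here says nothing about the bins. With limma across 73805 bins, of which 575 were bound bins of the scaffold that passed the low-signal filter, 0 bins had an adjusted p under 0.05 in any of the knockdowns or in their mean against the control (0% of all bins tested). At an unadjusted p under 0.05, the mean of the 3 knockdowns was lower in 214 (2.56% of all bins) and higher in 34 (1.66% of all bins) of the 575 bound bins. With the 3 knockdowns treated as 1 group against the control, 66 bound bins were lower (0.645% of all bins) and 13 higher (0.503% of all bins). On the reads recovered from the signal, limma with voom weights called 29 bound bins lower (0.592% of all bins) and 3 higher (0.329% of all bins). With bins of an index of at least 0.5 only, 9 of 171 bound bins were lower (0.419% of all bins) and 0 higher (0.226% of all bins). Treating the 3 knockdowns as 1 group takes different knockdowns as replicates. The settings with voom weights and with an index of at least 0.5 were not tried on simulated data.

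In 28 of the 37 domains the median RNA-seq change was below 0 in rhino, deadlock and cutoff knockdown alike. A lower median did not always come with a lower mean. At 1990001 to 2035000, 1 of these domains, the mean was 6.20, 1.54 and 4.72 in those knockdowns, against 0.409 and 0.385 in the control libraries. In each knockdown nearly all of that mean came from 1 of its 31 bound bins, with a signal of 191, 46.7 and 145. Its median bin had 0.033, 0.026 and 0.041 in those knockdowns, against 0.344 and 0.330 in the control libraries. At 1399001 to 1431000 the mean RNA-seq signal was 0.0826 in rhino knockdown, 0.293 in deadlock knockdown and 0.0459 in cutoff knockdown, against 0.862 and 1.02 in the control libraries (0.939 ± 0.108, SD, n = 2). All 3 knockdowns were lower than both controls there, and the mean GRO-seq signal was 0.238 in rhino knockdown and 2.13 in the control. At 165001 to 209000 the mean RNA-seq signal was 0.0550 in rhino knockdown, 0.0165 in deadlock knockdown and 0.03635 in cutoff knockdown, against 0.577 and 0.384 in the control (0.481 ± 0.137, SD, n = 2). At 1438001 to 1455000 it was 0.0245 in rhino knockdown, 0.0620 in deadlock knockdown and 0.0176 in cutoff knockdown, against 0.297 and 0.474 in the control (0.385 ± 0.126, SD, n = 2). All 3 knockdown means also lay below both control libraries at 1481001 to 1507000 and 1873001 to 1906000. This was not particular to the leading domains. At 2039001 to 2053000, outside the first 8, the means were 0.061, 0.059 and 0.044 in rhino, deadlock and cutoff knockdown. The control libraries there had 0.559 and 0.688. At 280001 to 330000 and 243001 to 275000 the deadlock knockdown, with 0.688 and 0.632, lay above at least 1 control library.

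GRO-seq reads at 7 of the 8 leading domains were fewer in rhino knockdown. They were 1 in rhino knockdown and 22 in the control at 1481001 to 1507000, 2 and 39 at 1438001 to 1455000, 9 and 100 at 1399001 to 1431000, 8 and 79 at 165001 to 209000, 5 and 39 at 1873001 to 1906000, 57 and 137 at 280001 to 330000, and 71 and 129 at 243001 to 275000. The scaled decline ran from 1.71-fold (1.27 to 2.32) at the last of these to 20.7-fold (3.35 to 855) at the first. Pol II reads were lower at all 8, by 1.32-fold to 1.83-fold, with intervals above 1 in each.

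The domain at 532001 to 556000 went the other way in RNA, although it lost Rhino and small RNA like the rest. Its mean RNA-seq signal was 1.95 in rhino knockdown, 1.82 in deadlock knockdown and 1.15 in cutoff knockdown, against 0.796 and 1.08 in the control (0.938 ± 0.202, SD, n = 2). Its GRO-seq reads were 97 in rhino knockdown and 35 in the control. Few bins carried these reads, and the 3 richest held 61.9% of its RNA-seq reads in rhino knockdown, 70.1% in deadlock knockdown and 83.2% in cutoff knockdown, against 28.5% and 37.5% in the control libraries. By the median bin, RNA-seq was 0.117 in rhino knockdown, 0.361 in deadlock knockdown and 0.090 in cutoff knockdown, against 0.496 and 0.745 in the control, so the median bin was lower where the mean was higher.

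**Figure D4:**
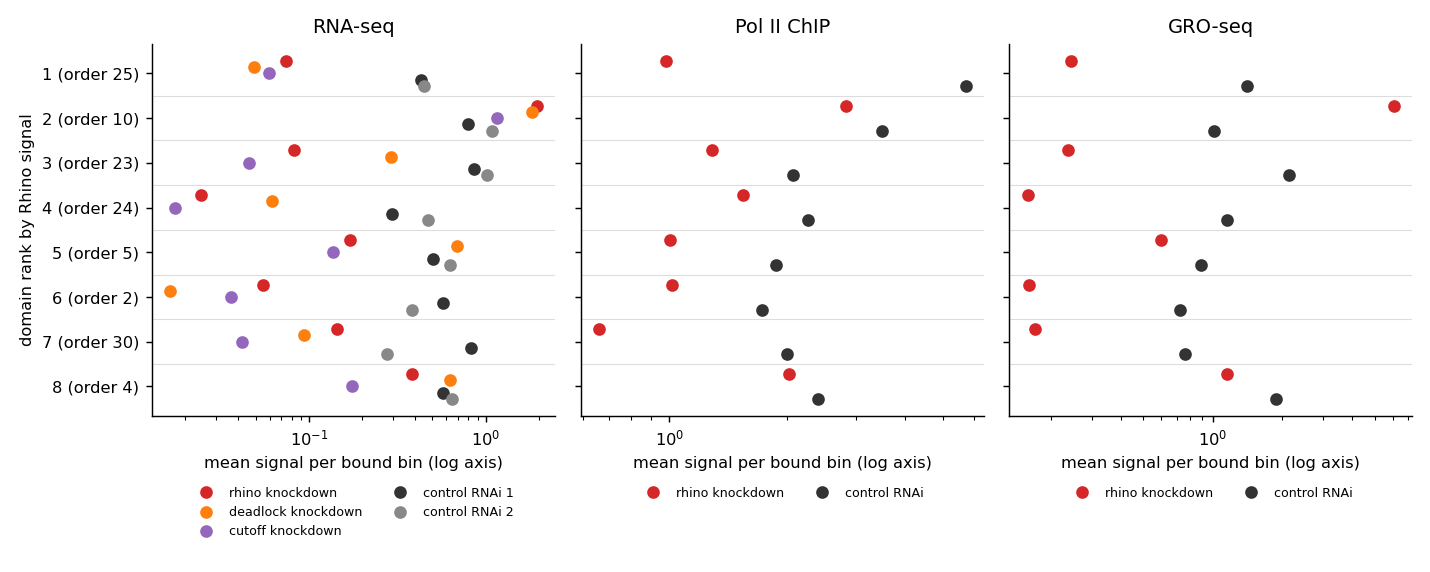
Mean signal per bound bin in the 8 domains with the most Rhino, by rank from top to bottom, for RNA-seq (3 knockdowns and 2 control libraries), Pol II ChIP and GRO-seq (rhino knockdown and control), on log axes. Numbers in brackets give the domain's place along the scaffold. Rank 2, at 532001 to 556000, is the domain with RNA-seq and GRO-seq means above the control in rhino knockdown. The control Pol II mean of rank 1 includes a bin of index 0.001 with a signal of 84.1 from 2 reads.

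In 3 small domains the median RNA-seq change was above 0 in all 3 knockdowns, at 661001 to 667000, 731001 to 738000 and 1736001 to 1747000, with 17 bound bins in all. They were picked out after their values were seen. At 1736001 to 1747000 the mean RNA-seq signal was 5.24 in rhino knockdown, 5.52 in deadlock knockdown and 1.91 in cutoff knockdown, against 0.106 and 0.0567 in the control libraries. The mean GRO-seq signal there was 26.7 in rhino knockdown and 0.752 in the control, and the mean Pol II signal was 25.2 in rhino knockdown and 6.02 in the control. At 661001 to 667000 the mean RNA-seq signal was 5.29 in rhino knockdown, 6.76 in deadlock knockdown and 3.98 in cutoff knockdown, against 0.537 and 0.723 in the control. At 731001 to 738000 it was 1.51, 0.322 and 0.492 in those knockdowns, against 0.0995 and 0.261 in the control.

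The 3 domains overlapped in small RNA with those of mixed RNA change and not with those of lower RNA. Their median log2 change in rhino knockdown was between -2.69 and -0.45, whereas it was between -6.09 and -1.52 in the 6 domains of mixed or no RNA change and between -8.15 and -3.92 in the 28 with lower RNA. At 731001 to 738000 the mean small RNA signal was 71.6 in rhino knockdown, 105 in deadlock knockdown and 48.4 in cutoff knockdown, against 124 in the control, and the mean Rhino signal was 45.7 in rhino knockdown and 39.9 in the control. GRO-seq had a median change above 0 in 6 domains, these 3 among them. Their median mappability indices were 0.1985, 0.106 and 0.0845, and their GRO-seq reads numbered 53, 16 and 117 in rhino knockdown, against 24, 0 and 5 in the control.

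Small RNA signal and H3K9me3 signal changed differently across the edges of the domains. In the control, median small RNA signal was 9.28 in bins over 50 kb outside a domain, 33.9 at 10 to 20 kb, 41.1 in the last kb outside, 98.3 in the first kb inside and 182 at over 10 kb inside. In rhino knockdown the same medians were 1.51, 0.785, 0.593, 0.874 and 1.00, with no step at the edge. The control signal was thus above that of far bins for at least 10 kb outside the domains. These outside bins include scattered bound bins in differing shares. They were 47 of 470 bins over 50 kb outside, 27 of 120 at 10 to 20 kb and 0 of 26 in the last kb. Bound bins start at the edge by definition, and median mappability changes there too, with 0.746 in the last kb outside and 0.192 in the first kb inside.

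H3K9me3 signal showed no step at the edge, whereas its ratio to input did. The control median log2 over input was 2.34 in the last kb outside and 2.77 in the first kb inside. It was 2.74 over 50 kb outside. The median input was 5.62 in the last kb outside and 3.78 in the first kb inside, and the choice of bound bins uses that input. The control median of the H3K9me3 signal was 50.6 over 50 kb outside, 32.2 in the last kb outside, 32.6 in the first kb inside and 35.7 at over 10 kb inside. In rhino knockdown these medians were 35.7, 23.8, 25.9 and 28.5. RNA-seq medians were 0.146 in rhino knockdown and 0.223 and 0.370 in the control libraries over 50 kb outside. They were 0.031 in rhino knockdown and 0.238 and 0.204 in the control in the first kb inside, and 0.023 in rhino knockdown and 0.262 and 0.286 in the control at over 10 kb inside.

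**Figure D5:**
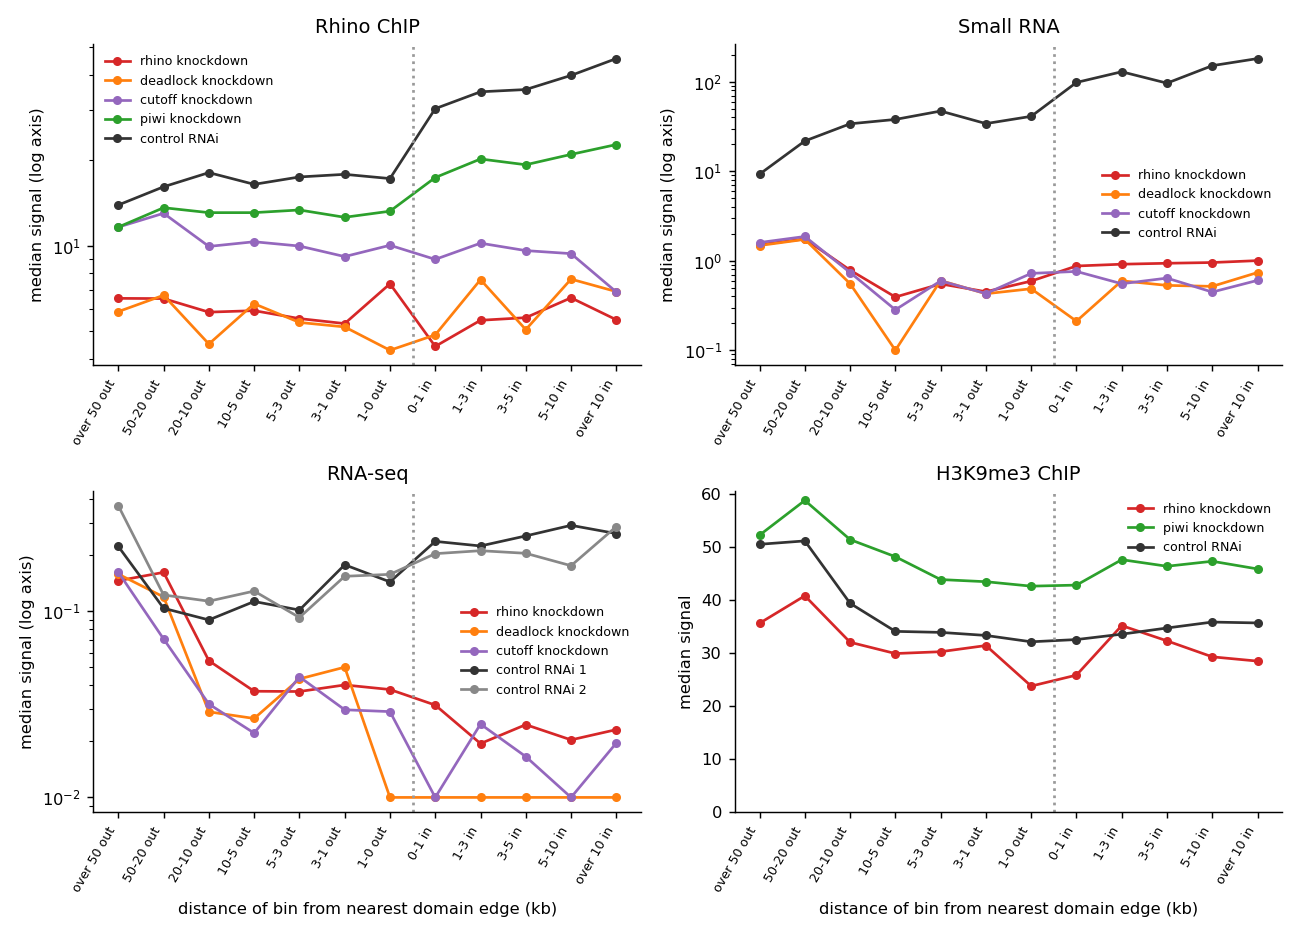
Median signal of bins grouped by distance in kb from the nearest domain edge, outside (left of the dotted line) and inside (right), for Rhino ChIP, small RNA and RNA-seq on log axes and H3K9me3 on a linear axis. Lines are the knockdowns and the control, with both RNA-seq control libraries. Control small RNA has a median of 41.1 in the last kb outside and 98.3 in the first kb inside, and rhino knockdown has 0.593 and 0.874 there.

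The bound bins were not alike in annotation. Published clusters held 531 of 741 bound bins (71.7%) and 284 of 940 unbound bins (30.2%). They held every bound bin of 17 domains and none of 9. Bound bins inside and outside published clusters had median log2 changes of small RNA in rhino knockdown of -6.06 and -4.18, and of Rhino in cutoff knockdown of -2.20 and -1.29. Bins of the authors' Rhino peaks numbered 169 among bound and 23 among unbound bins. No bin of the scaffold carried the authors' flag for a major cluster.

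Mappability moved with several of the results, and its part in them was not tested. Of the bound bins, 350 had an index under 0.2 and 200 one of at least 0.5. The median log2 change in rhino knockdown was -2.85 in the first and -2.53 in the second for Rhino, and -5.33 and -5.28 for small RNA. For RNA-seq it was -0.18 and -1.27.

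Beside other heterochromatin processed by the same rules, values differed in places, and no difference between scaffolds was tested. Small RNA reads of bound bins in rhino knockdown were 47.8-fold lower on 3LHet, 57.4-fold lower in the pericentromeric part of 3L, 14.5-fold lower on 3RHet and 10.3-fold lower on the unplaced scaffold U. The median log2 change of small RNA was closer between them, with -5.46 on 3LHet, -5.40 on pericentromeric 3L, -5.20 on 3RHet and -4.83 on U. The median log2 change of H3K9me3 in bound bins in rhino knockdown was -0.28 on 3LHet, -0.25 on pericentromeric 3L, 0.34 on 3RHet and -0.22 on U. RNA-seq medians in rhino knockdown were -0.98 on 3LHet, -1.10 on pericentromeric 3L, -0.22 on 3RHet and 0.00 on U.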

How the data were processed

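The authors deposited 1 table of 139714 bins of 1 kb on dm3, with a signal per bin for 27 columns used here, a mappability index and flags. The 21 columns of single libraries are, by their values, reads scaled to a library total and divided by the index, plus an offset: whole reads, within 0.1 read, came out in 100% of bins under 500 reads. The other 6 columns used are the authors' averages of 2 libraries, whose depth is unknown. Tools listed in the submitters' processing notes are bedtools 2.16.1, GSNAP, cutadapt 1.0, SAMtools 0.1.16 and Bowtie 0.12.7. Strand is not given, and reads from repeats cannot be placed in bins of index 0. What the small RNA totals count is not given in the sources used here. A column that matched no sample was not used (1 column). The labels list 36 libraries, of which 33 have a column. H3K4me2 and capped RNA were not analysed here.

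Bins with input of at least 25% of the median were kept. Changes are differences of log2(signal + 1), or log2(signal + 0.1) for RNA-seq, so folds of low bins are understated. Intervals of medians are distribution-free binomial ones, and those of read ratios are exact Clopper-Pearson, both at 95%. RNA-seq was tested with limma 3.58.1 (R 4.3.3; trend, 4 groups over 5 libraries) on bins whose mean signal was at least 0.05 above the offset, with Benjamini-Hochberg adjustment, after a check on simulated data. Nothing in the labels says that the 2 control libraries came from separate cultures of flies, so p-values may measure technical spread. Python 3.11.15 was used for the rest. Bins and domains named by plan are the 8 domains with most summed Rhino above input, their highest bins and the 5 unbound bins with most small RNA. The planned naming of tested RNA-seq bins had none to name. Other domains, and the bin with the highest Rhino ratio, were named for their values. Members, lists and thresholds were chosen with earlier results of these data known. Transcripts of the knocked-down genes were not analysed here. Alternatives were pseudocounts of 0.1 and 5 (1 and 0.02 for RNA-seq), no input filter, a mappability index of at least 0.5, equal medians over the euchromatic arms, binding thresholds of 2-fold and 8-fold, gaps of 10 kb, other limma settings and leaving out each RNA-seq control. limma with voom on recovered reads was added after seeing the data.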

Additional observations from a re-analysis of the deposited data

How the results depend on the processing

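With bins of a mappability index of at least 0.5 only, 200 bins in 19 domains were bound. At least 2-fold lower for Rhino were then 198 bound bins in rhino knockdown, 198 in deadlock knockdown, 183 in cutoff knockdown and 82 in piwi knockdown, with 40 lower for Deadlock and 24 for Cutoff in their own knockdowns. H3K9me3 over input was 2-fold higher in 200, H3K9me3 lower in 17 in rhino knockdown and higher in 3 in piwi knockdown. Small RNA was lower in 199 bound bins in each of rhino, deadlock and cutoff knockdown, and in 380, 372 and 380 unbound bins. Pol II was lower in 2, GRO-seq in 26, and RNA-seq in 133, 126 and 138 in rhino, deadlock and cutoff knockdown. Fewer bins are counted there, but the shares moved too, down for Pol II and up for RNA-seq, and the cause was not tested. A pseudocount of 5 gave 406 bound bins, and 134 lower for Deadlock, 92 for Cutoff, 52 for H3K9me3 in rhino knockdown, 11 for Pol II and 13 for GRO-seq, with 17 higher for H3K9me3 in piwi knockdown. A pseudocount of 0.1 gave 194 for Pol II and 196 for GRO-seq. Without the input filter, 140 bound bins were lower for H3K9me3 in rhino knockdown and 46 higher in piwi knockdown. With equal medians over the euchromatic arms, 130 were lower for H3K9me3 in rhino knockdown, and the cause was not tested. This scaling moved the median of all bins for that change to -0.08, against 0.08 as deposited, for Rhino in rhino, deadlock and cutoff knockdown to -0.12, -0.13 and -0.05, against 0.06, 0.05 and 0.14, and for RNA-seq in deadlock and cutoff knockdown to 0.00 and 0.04, against -0.13 and -0.15. Binding at 2-fold gave 1331 bins, and at 8-fold 280 bins in 19 domains. RNA-seq with a pseudocount of 1 gave 27, 34 and 26 lower bound bins in rhino, deadlock and cutoff knockdown. limma calls for the mean of the knockdowns, 0 as designed, were 66 lower and 13 higher in bound bins and 6 lower and 10 higher in unbound bins with the 3 knockdowns as 1 group. They were 29 and 3, and 8 and 5, on recovered reads with voom, an alternative chosen after seeing the data, and 9 lower bound and 2 higher unbound bins at an index of at least 0.5. Leaving out either RNA-seq control gave 338 to 366 lower bound bins in rhino knockdown, 330 to 351 in deadlock knockdown and 357 to 389 in cutoff knockdown. For the counts of bins lower or higher by fold, shares over all bins were not computed at the alternative settings. How far the scaffold's bins stood out from all bins there was thus not tested. No paired analysis was possible because replicates of the numbered groups come as the authors' averages and each RNA-seq knockdown has 1 library.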

Other observations

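The 368 bins of the scaffold set aside for low input had a median mappability index of 0.277, and 33 of them had no input read. By their ratio to this low input, 223 (60.6%) would have met the 4-fold rule for Rhino. Their median small RNA signal was 0.1, a bin without reads, in each of rhino, deadlock and cutoff knockdown, against 20.9 in the control.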
